A study of Mus musculus with 20 samples.

Results

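The 7 genes described here encode the globin chains of mouse haemoglobin: the embryonic genes Hbb-bh1, Hbb-y and Hba-x, and the adult genes Hba-a1, Hba-a2, Hbb-bs and Hbb-bt. They were taken by name from the 26397 genes of the count matrix and followed in the cells that the authors annotated as erythrocytes, 2122 of 94705 cells. The other cell types served to measure globin RNA free in the cell suspension.

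The study sampled single cells of the developing mouse gonad with the 10x Chromium 3′ method (version 2 chemistry), in which each captured RNA molecule is counted by its unique molecular identifier (UMI). Embryos came from CD-1 outbred females mated with males heterozygous for Tg(Nr5a1-GFP), a transgene that marks gonadal cells and was used to locate the tissue, and no sort of the cells is described. Of 5 stages, the first 2 (E10.5 and E11.5) were dissected as urogenital ridges, which hold gonad and mesonephros, and the later 3 (E12.5 and E13.5, then E16.5) as testes or ovaries. XX and XY embryos gave 2 libraries each per stage, 20 in all. The study calls the 2 libraries of a group independent biological replicates, and the labels do not give the number of embryos in each.

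Haemoglobin pairs alpha-like with beta-like chains, and each kind of chain is encoded by a gene cluster. In the mouse embryo the first red cells, the primitive erythrocytes, arise in the yolk sac, enter the circulation with their nucleus and make mostly embryonic chains. Definitive erythrocytes, made later in the fetal liver, lose their nucleus and carry adult chains. Primitive cells are known to change their globins as they mature in the blood, and to transcribe adult genes beside the embryonic ones.

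The beta-like genes stand in a cluster on the minus strand of chromosome 7 (GRCm38, GENCODE M21 annotation), each protein coding with 3 exons. In the direction of transcription these are Hbb-y (chr7:103851749-103853216), Hbb-bh1 (chr7:103841637-103843164), Hbb-bs (chr7:103826534-103828096) and Hbb-bt (chr7:103812524-103813996), and 39.2 kb separate the first start from the last. The alpha-like genes lie on the plus strand of chromosome 11, with 3 exons each: Hba-x (chr11:32276400-32278116), Hba-a1 (chr11:32283511-32284465) and Hba-a2 (chr11:32296489-32297298), over 20.1 kb between starts. In each cluster the embryonic genes precede the adult ones.

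Promoter sequences are shown because the members differ in the stage at which they are expressed, and the promoter is where their transcription starts. RefSeq windows (GRCm38.p6) of 120 bases before the transcription start were available for 6 of the 7 genes, all but Hbb-bh1. The RefSeq starts lie downstream of the gene starts of GENCODE given above, by 9 bases in Hbb-y, 168 in Hbb-bs, 73 in Hbb-bt, 200 in Hba-x, 161 in Hba-a1 and 3 in Hba-a2, so that the windows of Hbb-bs, Hba-x and Hba-a1 lie wholly within the GENCODE genes. Capitals mark matches to 4 motifs, searched on both strands. These were CACCC, known as a site of KLF proteins, the promoter box CCAAT, the TATA-like box ATATAA, and its variant written ATAAAA. In Hbb-bt the second of these also lay 2 times on the other strand, where it reads as ATTGG. No match overlapped another in these windows. The window of Hba-a2 shares a run of 117 bases with that of Hba-a1, offset by 3 bases, and is not repeated. The windows are those of Hbb-y at chr7:103853208-103853327 (minus strand), Hbb-bs at chr7:103827929-103828048 (minus strand), Hbb-bt at chr7:103813924-103814043 (minus strand), Hba-x at chr11:32276480-32276599 (plus strand) and Hba-a1 at chr11:32283552-32283671 (plus strand).
Hbb-y: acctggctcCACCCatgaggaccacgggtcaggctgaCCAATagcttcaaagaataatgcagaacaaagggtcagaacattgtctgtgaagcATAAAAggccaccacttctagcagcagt
Hbb-bs: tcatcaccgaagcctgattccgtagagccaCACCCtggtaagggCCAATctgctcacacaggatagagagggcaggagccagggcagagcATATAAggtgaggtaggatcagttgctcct
Hbb-bt: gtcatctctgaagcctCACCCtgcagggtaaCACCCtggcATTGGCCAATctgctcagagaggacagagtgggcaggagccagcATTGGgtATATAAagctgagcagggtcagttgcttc
Hba-x: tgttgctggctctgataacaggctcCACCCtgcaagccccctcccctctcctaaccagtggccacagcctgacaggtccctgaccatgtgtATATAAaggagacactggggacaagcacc
Hba-a1: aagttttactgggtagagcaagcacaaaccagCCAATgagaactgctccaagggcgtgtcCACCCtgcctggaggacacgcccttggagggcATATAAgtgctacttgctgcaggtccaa

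All 6 windows held CACCC, which occurred in 31.7% of 32851 RefSeq promoter windows of this length. CCAAT was found in all but Hba-x (21.3% of all windows), and ATATAA in all but Hbb-y (4.47%), where ATAAAA (8.30%) stood 28 bases before the start. In the other windows ATATAA began 28 to 31 bases before the start. These are matches of letters and were not tested as binding sites.

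Each library held 2049 to 8774 cells, with 31241516 to 160435537 UMIs. Erythrocytes numbered 56 at E10.5 and 80, 654, 695 and 637 at the 4 later stages. At E10.5 and E11.5, XX replicate 2 held 2 erythrocytes each, and these 2 libraries were left out of means and tests, which rest on 18 libraries (3, 3, 4, 4 and 4 by stage). Of 10 erythrocyte markers other than these globins, 9 were in the matrix and all 9 were detected at every stage, summing to 917 to 2969 counts in 1000000 UMIs (CPM). Markers of other cells were low in the same sums: 0 to 14.9 CPM for immune cells, 0 to 11.9 for endothelium, 0 to 141 for germ cells and 14.9 to 180 for gonadal somatic cells. Of the 2122 erythrocyte barcodes, 6 occurred in more than 1 library. The library E12.5 XY replicate 1 stood apart from the other E12.5 libraries in several globins, as did its sequencing depth (12.2 reads per UMI in its erythrocytes against 3.48 to 3.98). Stage means include it, and only some of the results that rest on it are also given without it.

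The globin part of the RNA had a higher mean at each stage up to E13.5. The 7 genes made up 50.7% ± 4.09 (SD, n = 3) of erythrocyte UMIs at E10.5, and at the later stages 71.4% ± 5.00 (n = 3), 84.6% ± 2.71, 88.5% ± 0.907 and 89.5% ± 5.62 (n = 4 each). From E10.5 to E16.5 the difference was 38.8 percentage points (exact permutation, two-sided, p = 0.0286, adjusted p = 0.0833). The last step, from E13.5 to E16.5, was 0.9995 points (adjusted p = 0.935, exact permutation) and became -0.31 without E16.5 XX replicate 1 and -0.23 without E16.5 XY replicate 1. The number of globin UMIs per cell moved the other way, from 24350 to 27920 per erythrocyte over the E10.5 libraries to 8704 to 12970 over those of E16.5, and the median total per cell went from 49209 to 10817 UMIs. CPM therefore give a gene's part of the cell's RNA and not its molecules per cell. Since the method counts molecules from the 3′ end, levels were compared between genes with no length correction.

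Hbb-bh1, which encodes the earliest beta-like chain of primitive cells and whose RNA was scarce by E16.5, had a lower mean at each later stage. It stood at 63682, 72352, 70937 and 68021 CPM at E10.5 (XX replicates 1 and 2, then XY replicates 1 and 2) and at 39723, 18483, 37256 and 27842 at E11.5. At E12.5 the values were 6314, 6846, 3817 and 6565, and at E13.5 they were 3835, 3393, 1110 and 3764. At E16.5 they were 15.7, 14.9, 13.9 and 12.3, which is 99 UMIs over the 4 libraries. No library of any stage overlapped those of the stage before or after except at E12.5 and E13.5, where E12.5 XY replicate 1 and E13.5 XX replicate 1 lay close together.

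Hbb-y encodes the other embryonic beta-like chain and followed a later course. Its values were 182042, 220913, 235942 and 197164 CPM at E10.5, and 299042, 313818, 292874 and 345403 at E11.5. At E12.5 they were 378157, 350636, 182321 and 346365, and at E13.5 they were 305198, 205890, 156475 and 243564. Hbb-y was the most abundant of the 7 genes by its mean at the first 3 stages, although at E12.5 its range overlapped that of Hba-a1. At E16.5 its values were 19.4, 10.6, 1.03 and 31.0 CPM, 126 UMIs in all.

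Hba-x encodes the embryonic alpha-like chain (zeta) and had its highest mean at E10.5. It stood at 95711, 87005, 85790 and 85083 CPM at E10.5, at 82164, 102522, 71044 and 62639 at E11.5, at 33786, 47059, 25358 and 34229 at E12.5 and at 29291, 20145, 13256 and 28983 at E13.5. Only 13 Hba-x UMIs were counted in the 637 erythrocytes of E16.5, with 0 in XY replicate 1 and at most 3.76 CPM in the other 3 libraries.

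The adult genes had their lowest means at E10.5. Hbb-bs, the more abundant adult beta-like gene, stood at 2924, 9694, 11568 and 7777 CPM at E10.5 and at 34219, 24906, 36293 and 62081 at E11.5. At E12.5 it stood at 88345, 65490, 141037 and 92274, at E13.5 at 108372, 169523, 255148 and 199958, and at E16.5 at 359254, 364894, 378872 and 406583. Hbb-bt, the second adult beta-like gene, went from 2439 ± 1343 (SD, n = 3) at E10.5 through 11902 ± 5581 (n = 3), 40850 ± 18350 (n = 4) and 75875 ± 18250 (n = 4) to 98814 ± 6588 (n = 4) at E16.5. Hba-a1, the more abundant adult alpha-like gene, was already the second gene of the order at E10.5, with 125173 ± 14800 CPM (n = 3), and stood at 378694 ± 24820 (n = 4) at E16.5. Per erythrocyte its UMIs were not higher at the end, with 5748 to 7135 over the 4 libraries of E10.5 and 3693 to 5312 over those of E16.5. The mean of Hba-a2 ranged from 10877 ± 4294 (n = 3) at E10.5 to 41299 ± 44490 (n = 4) at E12.5, a spread set by E12.5 XY replicate 1 (108035 against 18250 to 19656 in the others). At E16.5 Hba-a2 stood at 89536, 12115, 41733 and 17620 CPM (mean 40251 ± 35280, n = 4). Its UMIs per erythrocyte were 353 to 816 over the libraries of E10.5 and 130 to 1242 over those of E16.5.

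**Figure D1:**
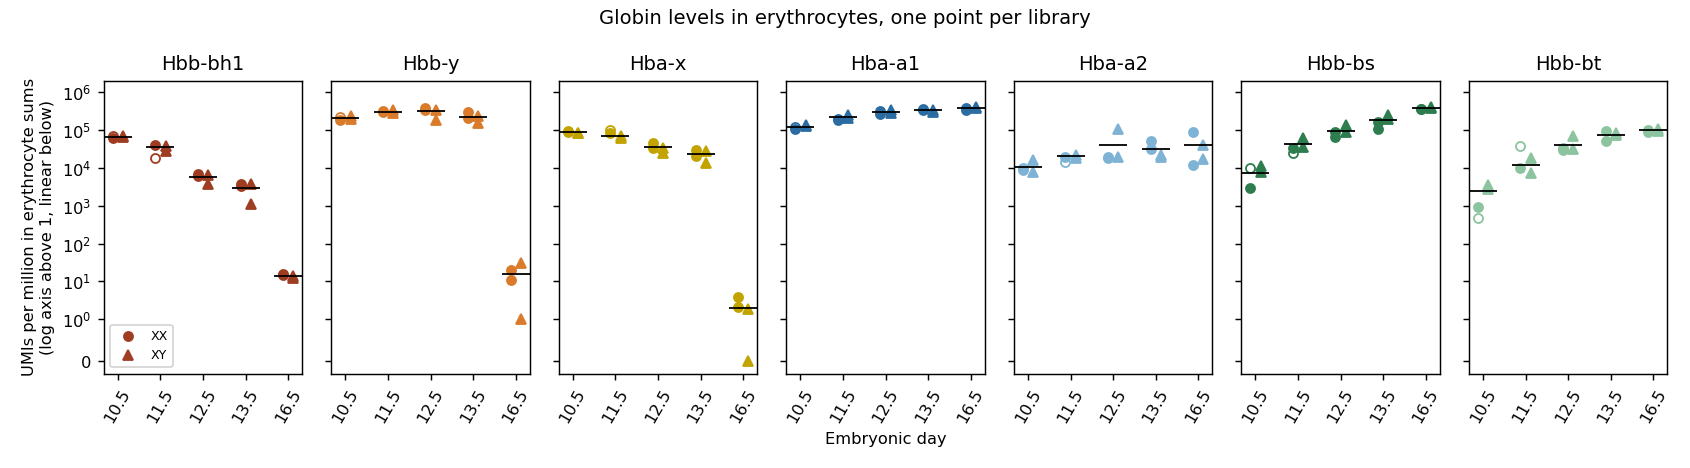
CPM of each globin gene in erythrocyte sums (vertical axis, logarithmic above 1 CPM) by embryonic day, with a circle for each XX and a triangle for each XY library, open for the libraries with 2 erythrocytes, and a bar at the mean of the filled symbols. Hbb-bh1, Hbb-y and Hba-x lie at 31.0 CPM or less at E16.5, while the mean of Hbb-bs is higher at each later stage.

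The order of the genes changed with these levels. At E10.5 it was Hbb-y, Hba-a1, Hba-x, Hbb-bh1, Hba-a2, Hbb-bs and Hbb-bt, with overlap between neighbours only among the last 3. At E16.5 Hba-a1 and Hbb-bs led with overlapping ranges, followed by Hbb-bt and Hba-a2, whose ranges did not overlap. Hbb-y and Hbb-bh1 came next with overlapping ranges, and Hba-x had the lowest mean. The range of Hbb-y (1.03 to 31.0 CPM) also overlapped that of Hba-x (0 to 3.76 CPM).

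Differences between stages were tested on the summed counts with edgeR's quasi-likelihood test (Benjamini-Hochberg adjustment over 7303 genes, with a call where the adjusted p was under 0.05 and the log2 change 0.361 or more in size). No library date in the sample titles is shared between stages, so effects of stage and date cannot be told apart in any comparison of stages. The tissue dissected also differed between E11.5 and E12.5. Fold changes are scaled by TMM, which holds the bulk of genes level. Where no such scaling was used and library totals were taken, the median log2 fold change of all genes from E10.5 to E16.5 was -2.40 in place of -0.04. Of all called genes in that comparison, 68.2% were higher with TMM and 1.99% with totals.

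Between E10.5 and E16.5, all 7 genes were called: 4 of 7 higher against 8.74% of all genes tested and 3 of 7 lower against 4.07%, or 12.8% in either direction. The embryonic genes fell, with log2 fold changes of -9.65 (SE 0.557) for Hbb-bh1, -11.10 (SE 0.775) for Hbb-y and -13.10 (SE 0.666) for Hba-x, with edgeR adjusted p of 1.04e-12, 7.90e-11 and 1.36e-13. Among the adult genes Hbb-bs rose most, by 8.70 (SE 0.769, edgeR adjusted p = 9.39e-09), followed by Hbb-bt at 8.43 (SE 0.765). Hba-a2 rose by 4.77 (SE 0.857, edgeR adjusted p = 3.56e-04) and Hba-a1 by 4.24 (SE 0.584). The Hba-a2 level of E16.5 XX replicate 2, 12115 CPM, lay within the E10.5 range of 7885 to 15797 CPM. With library totals the same 7 calls held, with smaller rises (Hba-a1 1.64, Hba-a2 1.91, Hbb-bs 6.14, Hbb-bt 5.83). Requiring 20 erythrocytes per library left 1 library at E10.5, taken to vary like the other groups, and with it Hba-a2 was at 4.83 and not called (edgeR adjusted p = 0.0625).

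From E10.5 to E11.5, 2 of 7 globins were called, both higher, against 1.19% of all genes (0.917% higher, 0.274% lower): Hbb-bs at 3.65 (SE 0.581, edgeR adjusted p = 0.00152) and Hbb-bt at 3.40 (SE 0.577, edgeR adjusted p = 0.00211). Both calls were lost without E10.5 XX replicate 1, the library with the lowest adult beta-like levels among those tested (2.66 with adjusted p = 0.0695, and 2.39 with adjusted p = 0.112). For Hba-x the log2 fold change was 0.41 with TMM and -0.29 with totals, and neither passed. From E11.5 to E12.5, 3 of 7 were called against 2.42% of all genes (2.03% higher, 0.397% lower), all higher: Hbb-bt at 3.36 (SE 0.559, edgeR adjusted p = 7.05e-04), Hbb-bs at 2.72 (SE 0.530, edgeR adjusted p = 0.00366) and Hba-a1 at 2.07 (SE 0.5, edgeR adjusted p = 0.0205). With totals Hba-a1 (0.54) was not called, and Hbb-bh1, at -1.12 with TMM (adjusted p = 0.166), was called lower at -2.63. The call of Hba-a1 was also lost without E11.5 XX replicate 1 (adjusted p = 0.0943), E11.5 XY replicate 1 (0.135), E11.5 XY replicate 2 (0.0654) or E12.5 XX replicate 2 (0.0713), and Hba-x was again of either sign (0.42 with TMM, -1.10 with totals).

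From E12.5 to E13.5 edgeR called 0 of 7 globins, against 0.205% of all genes (0.0959% higher, 0.11% lower), with 2 at an unadjusted p below 0.05: Hbb-bs (1.47, adjusted p = 0.329) and Hbb-bt (1.48, adjusted p = 0.329). DESeq2 called these 2, against 0.192% of all genes. From E13.5 to E16.5, 3 of 7 were called against 6.74% of all genes (1.51% higher, 5.23% lower), all lower: Hbb-bh1 at -8.00 (SE 0.516), Hbb-y at -14.09 (SE 0.841) and Hba-x at -13.93 (SE 0.674), with edgeR adjusted p of 1.23e-11, 2.43e-12 and 3.84e-14. None of the adult genes passed in that step, and Hbb-bs had the largest estimate among them, 0.86 (SE 0.413, edgeR adjusted p = 0.25).

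The shares of the chains within each cluster do not depend on this scaling. Embryonic chains (Hbb-bh1 plus Hbb-y) made up 96.6% ± 1.63 (SD, n = 3) of beta-like UMIs at E10.5, and then 86.2% ± 2.07 (n = 3), 69.0% ± 14.7, 47.3% ± 14.1 and 0.00622% ± 0.00245 (n = 4 each). Hba-x made up 39.7% ± 4.68 of alpha-like UMIs at E10.5 and then 23.3% ± 4.12, 9.36% ± 2.88, 5.83% ± 2.1 and 4.65e-04% ± 3.38e-04. At E10.5 the alpha-like cluster thus held a larger share of adult RNA than the beta-like cluster, in each of the 4 libraries (Hba-x 35.6 to 44.8% of alpha-like UMIs, embryonic chains 95.3 to 98.5% of beta-like UMIs). Of the UMIs of the embryonic beta-like pair, Hbb-bh1 held 24.9% ± 1.55 at E10.5, and then 10.2% ± 2.35, 1.87% ± 0.170 and 1.27% ± 0.411. At E16.5 that share was 56.1% ± 27.5, from 225 UMIs in all.

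Libraries of neighbouring stages did not overlap in the embryonic beta-like share or the Hba-x share, except between E12.5 and E13.5, where both overlapped. In exact permutation tests over libraries (two-sided) the smallest p possible was 0.0286, or 0.100 for 3 against 3, and with Benjamini-Hochberg adjustment over 35 tests no share passed, the lowest adjusted p being 0.0833. From E13.5 to E16.5 the embryonic beta-like share differed by -47.3 percentage points and the Hba-x share by -5.83 (p = 0.0286 and adjusted p = 0.0833 for each, exact permutation). From E12.5 to E13.5 they differed by -21.6 and -3.53 points (p = 0.0857 and adjusted p = 0.167 for each, exact permutation), and without E12.5 XY replicate 1 by -28.9 and -4.91 points (adjusted p = 0.159 for each, exact permutation). The Hbb-bh1 share differed between the same stages by -0.595 points (p = 0.0286, adjusted p = 0.0833, exact permutation).

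The mean balance of alpha-like to beta-like RNA stayed within a few points. Alpha-like UMIs were 44.5% ± 3.15 (SD, n = 3) of all globin UMIs at E10.5, followed by 43.5% ± 0.773 (n = 3), 45.7% ± 6.92, 44.6% ± 3.22 and 46.7% ± 3.17 (n = 4 each). From E10.5 to E16.5 the difference was 2.23 points (p = 0.400, adjusted p = 0.583, exact permutation), and the ranges of neighbouring stages overlapped throughout.

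Single erythrocytes fell into separate kinds by their beta-like RNA. At E12.5, 13.2% of 654 cells had at least 90% embryonic beta-like UMIs, 12.2% had at most 10%, and 74.6% lay between. Over all 2122 cells, 1046 had an embryonic share of at least 50% and 1074 of at most 5%, of which 1072 were at or below 1%, so that only 2 cells lay between 5 and 50%. Of those 2, the cell at 46.1% had 49530 UMIs (library median 22686), 89.1% of them globin, and the cell at 13.4% had 60674 UMIs (library median 20005), of which 0.869% were globin. The limits of 50% and 5% were chosen after these values were seen, and the groups on either side are called embryonic-kind and adult-kind cells below.

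**Figure D2:**
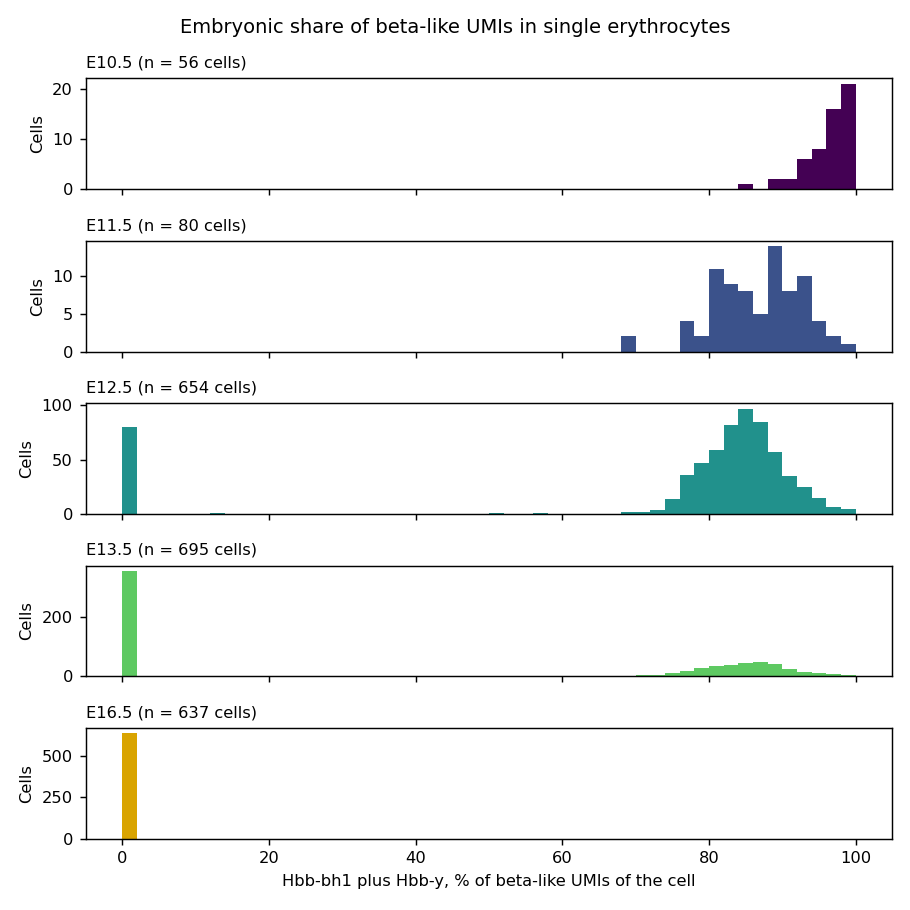
Number of erythrocytes (vertical axis) by the percentage of their beta-like UMIs that came from Hbb-bh1 plus Hbb-y (horizontal axis, bins of 2 points), for each stage. Cells lie above 50% at E10.5 and E11.5, near 0% or above 50% at E12.5 and E13.5 (except 2 cells), and near 0% at E16.5. In the upper group of E12.5 and E13.5 most cells lie at 75 to 90%.

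No adult-kind cell was found among 56 erythrocytes at E10.5, which allows a share of up to 5.36% (3 cells), or among 80 at E11.5, up to 3.75%. Cells under 50% made up 6.82%, 8.68%, 43.1% and 11.7% of erythrocytes in the E12.5 libraries (XX replicates 1 and 2, XY replicates 1 and 2), and 26.6%, 51.1%, 63.0% and 50.7% in those of E13.5. E12.5 XY replicate 1, with 22 of 51 cells (95% exact binomial interval 29.4 to 57.8%), lay in the range of the E13.5 libraries. At E16.5 all 637 cells were of the adult kind, and 0 of 637 cells at 90% or more allows a share of up to 0.471%. These limits and intervals cover counting error only. The annotated clusters 33 and 34 followed the same line, with 18 cells under 50% among the 1063 of cluster 33 and 1 cell at 50% or more among the 1059 of cluster 34, but these clusters were formed from the same genes and are no separate evidence.

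Within embryonic-kind cells the alpha-like and beta-like genes were again read by stage. Hba-x was 39.7% ± 4.68 (SD, n = 3) of their alpha-like UMIs at E10.5, 23.3% ± 4.12 (n = 3) at E11.5, 10.9% ± 1.80 (n = 4) at E12.5 and 10.7% ± 2.95 (n = 4) at E13.5, a difference of -0.272 points in the last step (p = 0.943, adjusted p = 0.943, exact permutation). Hbb-bh1 had a lower mean at E13.5 than at E12.5, with 1.86% ± 0.165 and then 1.27% ± 0.413 of the UMIs of it and Hbb-y (p = 0.0286, the smallest possible, adjusted p = 0.0914 over 16 tests, exact permutation). Their embryonic beta-like share, which defined the cells and was not tested, averaged 96.6%, 86.2%, 84.1% and 84.8% over the 4 stages. These means are bounded by the limit of 50% that chose the cells and say nothing of how the share over whole libraries changed.

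Embryonic-kind cells carried adult beta-like RNA from E10.5 on. Their mean was 221 to 675 UMIs of Hbb-bs plus Hbb-bt per cell at E10.5, 1356 to 2202 at E11.5, 1319 to 2046 at E12.5 and 1337 to 2090 at E13.5, against at most 4.90 per cell in other cells of the same stages (in this paragraph without cells above 1% globin). Adult-kind cells held 6690 to 14280 such UMIs per cell at E12.5 and E13.5. In the other direction, the embryonic UMIs (Hbb-bh1, Hbb-y and Hba-x) of adult-kind cells were few, 4.00 to 31.6 per cell at E12.5 and 2.79 to 8.15 at E13.5. Other cells of these libraries held 4.42 to 22.7 and 3.37 to 6.14 per cell. Adult-kind cells were above the other cells of their own library in E12.5 XX replicate 2 (31.6 against 22.7), E13.5 XX replicate 1 (8.15 against 6.14) and E13.5 XX replicate 2 (6.10 against 5.82) and below them in the other 5 libraries. A low embryonic share defined these cells, and the part of free RNA in these UMIs was not tested. At E16.5 Hbb-y (0.0114 to 0.321 UMIs per erythrocyte) and Hba-x (0 to 0.0522) stood beside 0.00184 to 0.283 and 0.00393 to 0.0330 in other cells. Hbb-bh1 was above it in all 4 libraries, at 0.127 to 0.217 UMIs per erythrocyte against 5.25e-04 to 0.0111 per other cell.

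**Figure D3:**
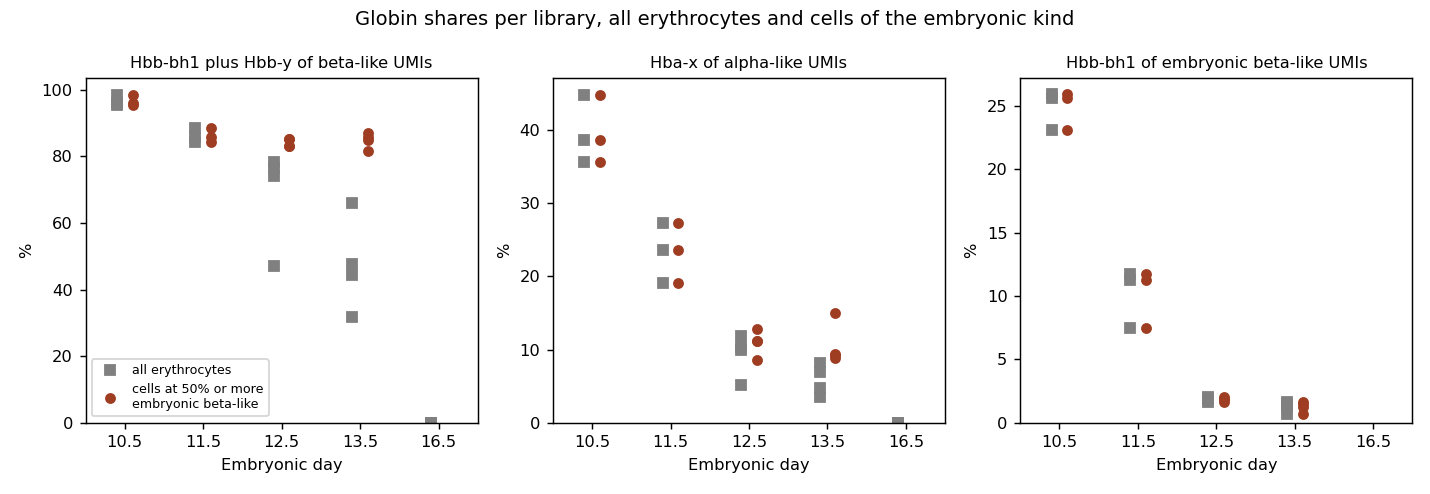
Shares of embryonic globins (vertical axes, %) by embryonic day, with a square for each library over all erythrocytes and a circle over its cells at 50% or more embryonic beta-like UMIs. The circles, which cannot lie below the 50% that chose their cells, are at 81.5 to 87.0% in the left panel at E12.5 and E13.5, the squares reach down to 31.7%, and the right panel leaves out E16.5, which had 225 UMIs in all.

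Globin UMIs also occurred in most other cells. Over all of them the mean was 1.13 to 24.9 globin UMIs per other cell over the libraries of E10.5 and E11.5 and 16.6 to 104 over those of the later stages, and 87.5% to 99.8% of other cells held at least 1 globin UMI by stage, at a median of 9020 to 26529 UMIs per cell by library. The lowest shares were 60.9% and 76.5%, in the libraries with 2 erythrocytes. With each cell thinned to 3000 UMIs the shares by stage were 43.1%, 61.5%, 91.5%, 89.3% and 85.7%. Leaving out cells above 1% globin, the embryonic share of their beta-like UMIs was lower at later stages, as in erythrocytes. It differed from that of the erythrocytes by -3.42 to 11.2 percentage points, being 94.4 to 98.0% at E10.5, 84.5 to 92.9% at E11.5, 58.3 to 83.0% at E12.5, 39.4 to 70.9% at E13.5 and 0.0195 to 9.56% at E16.5. The erythrocytes of E16.5 held only 0.00307 to 0.00863%. In E16.5 XX replicate 2 the share was 9.56% in other cells against 0.00559% in erythrocytes, and the source of this RNA was not tested. The share in other cells was the higher in 8 of the 8 libraries of E13.5 and E16.5 and in 3 of 4 at E12.5. By cell type, and again without cells above 1% globin, the median ratio of globin UMIs to those of all other cells of the library went from 0.654 in invading mesonephric cells to 1.53 in germ cells. With those cells kept, immune cells held the most, a median over libraries of 771 globin UMIs per cell, and late interstitial progenitors reached 3222 per cell in 1 library. Germ cells had a median of 24444 UMIs and invading mesonephric cells 9938, and the part of cell size in these ratios was not tested.

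**Figure D4:**
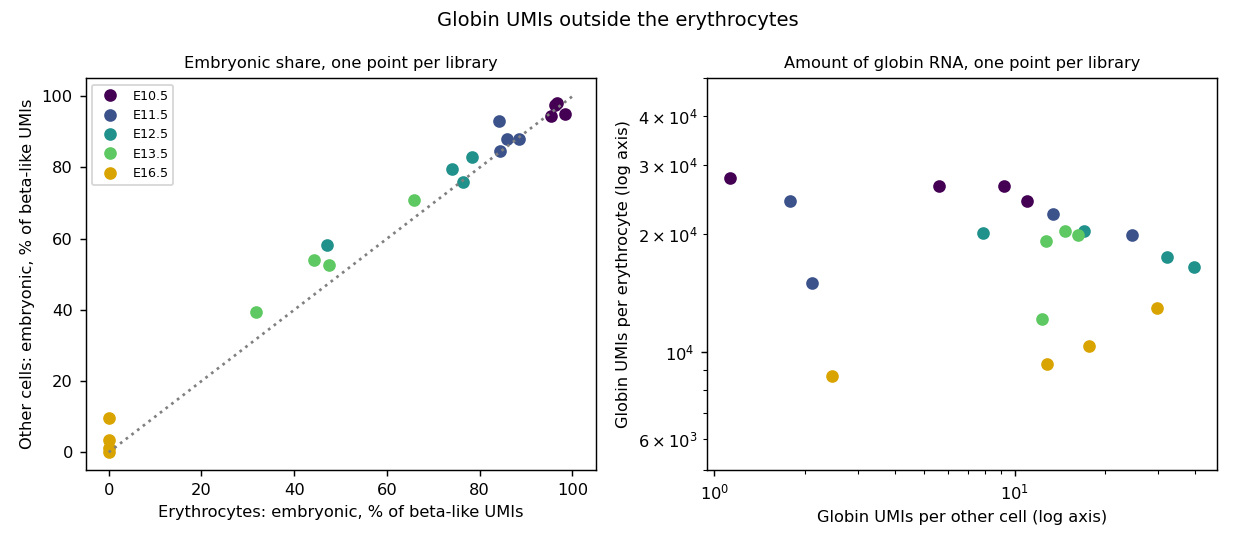
Left, embryonic percentage of beta-like UMIs in cells other than erythrocytes with at most 1% globin (vertical axis) against that in the erythrocytes of the same library (horizontal axis), with a dotted line at equality. Right, globin UMIs per erythrocyte against those per other cell, again for other cells with at most 1% globin, on logarithmic axes. Points are the 20 libraries, colored by stage, and lie within 11.2 points of the line on the left.

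The adult genes come as near-identical pairs, and a read cannot be assigned to a member where the transcripts match. For the Sry gene the paper describes reads with several matches as discarded. How many globin reads were lost in this way was not tested. Of the 602 windows of 98 bases (the read length) in the Hba-a1 transcript, 343 occur in Hba-a2, and of the 531 in Hbb-bs, 333 occur in Hbb-bt, whereas none of the embryonic transcripts shared a window with another member. Values of single members of these pairs are therefore uncertain. A loss of such reads could also lower the summed adult genes beside the embryonic ones. The gene order, the embryonic shares and the balance of alpha-like to beta-like RNA carry this limit too. The reference genome is that of C57BL/6J, and the globin alleles of the outbred CD-1 embryos were not given and not tested.

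With that limit, Hbb-bs made up 75.2% ± 1.87 (SD, n = 3) of the adult beta-like UMIs at E10.5 and 79.2% ± 1.54 (n = 4) at E16.5 (p = 0.0286, adjusted p = 0.0833, exact permutation), with 64.3 to 75.1% at E13.5. Its share varied far more between embryonic-kind than adult-kind cells of the same library. The SD over cells was 12.9 to 26.8 points (mean 19.9) among embryonic-kind cells and 3.12 to 4.60 (mean 3.98) among adult-kind cells in the 7 libraries with at least 10 cells of each kind, wider in 7 of 7 (exact sign-flip permutation over libraries, p = 0.0156, the smallest possible). With each cell thinned to 200 UMIs of the pair, the means were 19.8 and 4.99 points, again wider in 7 of 7. Hbb-bt outnumbered Hbb-bs in 170 of 999 embryonic-kind cells with at least 50 such UMIs and in 0 of 1073 adult-kind cells, which allows a share of up to 0.28%. For the alpha-like pair the SD of the Hba-a1 share was 0.904 points among embryonic-kind and 1.33 among adult-kind cells, wider among the adult kind in 7 of 7 libraries (p = 0.0156, exact sign-flip permutation over libraries). Thinned in the same way, the SD of the Hba-a1 share was 2.13 points among embryonic-kind and 2.33 among adult-kind cells (p = 0.234, exact sign-flip permutation over libraries).

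Hba-a1 made up 92.1% ± 2.26 (SD, n = 3) of the adult alpha-like UMIs at E10.5 and 91.0% ± 7.11 (n = 4) at E16.5, a difference of -1.14 points (p = 0.886, adjusted p = 0.939, exact permutation). Libraries differed more than stage means, from 76.5% in E12.5 XY replicate 1 and 81.1% in E16.5 XX replicate 1 to 96.6% in E16.5 XX replicate 2. The share was lower in libraries sequenced to more reads per UMI (Pearson's r = -0.877, p = 2.30e-04, adjusted p = 4.60e-04, and Spearman's rho = -0.876, p = 1.00e-05, the smallest that 100000 permutations can give, adjusted p = 2.00e-05, over 18 libraries and 2 relations). Without the 2 libraries of most reads per UMI, E12.5 XY replicate 1 and E16.5 XX replicate 1, r was -0.585 (permutation p = 0.0170) and rho -0.826 (permutation p = 2.20e-04). The Hbb-bs share had no such relation over the same libraries (r = 0.0180, permutation p = 0.940, rho = -0.0258, permutation p = 0.920).

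**Figure D5:**
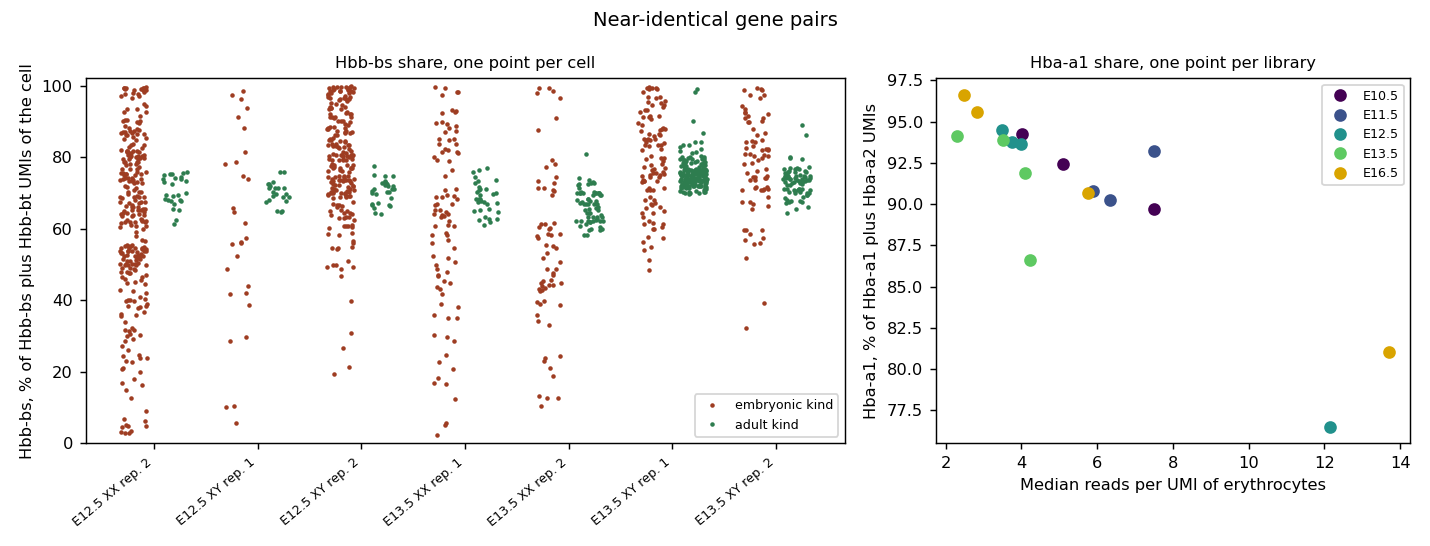
Left, Hbb-bs as a percentage of Hbb-bs plus Hbb-bt UMIs in single cells with at least 50 such UMIs (vertical axis) for the 7 libraries with both kinds of cells, embryonic kind on the left and adult kind on the right of each pair. Right, Hba-a1 as a percentage of Hba-a1 plus Hba-a2 UMIs against the median reads per UMI of erythrocytes, a point for each of 18 libraries; the left panel shows the wider scatter of the embryonic kind and the right panel the lowest shares, 76.5% and 81.1%, at the most reads per UMI.

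XX and XY erythrocytes were compared within stages, to see whether globin composition went with the sex of the embryo. By edgeR 0 of 7 globins were called against 0.123% of all genes (0.0137% higher, 0.11% lower), with 2 at an unadjusted p below 0.05, Hbb-bs (log2 XX minus XY -0.84, SE 0.292, adjusted p = 0.809) and Hbb-bt (-0.67), and DESeq2 called 0. The embryonic share of beta-like UMIs was higher in XX by 7.67 percentage points on average over the stages, with the XX mean higher in 5 of 5 (p = 0.0139, adjusted p = 0.0972 over 7 shares, exact permutation within stages), and that of Hba-x by 3.44 points, also in 5 of 5 (p = 0.0283, adjusted p = 0.0990, exact permutation within stages). For Hba-x this count includes E16.5, with 0 to 6 Hba-x UMIs per library, and E13.5, where XX libraries at 4.78 and 6.94% lay between XY libraries at 3.48 and 8.14%. For the embryonic beta-like share it includes E16.5, with 24 to 116 embryonic UMIs per library and XX libraries (0.0076 and 0.0056%) between XY libraries (0.0031 and 0.0086%). At E13.5 that share overlapped between the sexes, at 65.86 and 44.26% in XX and 31.67 and 47.55% in XY libraries. The first difference was 4.97 points without E12.5 XY replicate 1, and the pooled mean over 18 libraries was 56.5% in XX and 56.2% in XY, since the XX libraries left out were of the 2 earliest stages. On the 5 library dates that the sexes shared, the differences were 7.87 and 3.37 points with an adjusted p of 0.328 for each (exact permutation within dates, in which no p below 0.0625 is possible). At E13.5 no date is common to XX and XY libraries, so at that stage the effects of date and sex cannot be told apart.

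Genes of the haemoglobin pathway were read in the same erythrocyte sums between E10.5 and E16.5. Counts of each list stand against 8.74% of all genes higher and 4.07% lower with TMM, and against 1.53% higher and 75.5% lower with library totals, under which most genes of any kind were lower. The library E16.5 XX replicate 2 stood apart from the other 3 of its stage in several of these genes, with 90.4 CPM of Klf1 against 3.59 to 17.5 and 268 CPM of Alad against 27.7 to 102.2, and also in its TMM factor (1.25 against 0.423 to 0.610). Its globin share of UMIs was the lowest of the stage, 81.4% against up to 93.5% in the others. The counts of the lists and the named genes were also read without this library, and some of those values are given below.

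Of 9 genes of heme synthesis tested, 2 were higher and 1 lower with TMM (6 lower without E16.5 XX replicate 2, 3 lower without E16.5 XY replicate 2, 0 lower without E16.5 XY replicate 1), and 0 higher and 7 lower with totals. Alas2, the first enzyme of the erythroid heme pathway, rose by 3.12 (SE 0.393) and Fech, which inserts iron into the ring, by 2.51 (SE 0.379) on the log2 scale, and neither was called with totals. Alad, an early enzyme of the pathway, fell by 1.44 (SE 0.382), a call lost without E16.5 XY replicate 1 (edgeR adjusted p = 0.0769). The median log2 fold change of the list was -0.67 beside -0.04 for all genes tested. Of 11 genes of iron uptake and handling (median -0.32) 1 was higher with TMM (with 2 lower without E16.5 XX replicate 2 or E16.5 XY replicate 2), and 0 were higher and 10 lower with totals. The called gene was Ftl1, a ferritin chain, higher at 1.30 (SE 0.341) with TMM but lower at -1.12 with totals, and not called without E10.5 XY replicate 2 (edgeR adjusted p = 0.0517). Of 9 chain partners and redox enzymes (median 0.93) 3 were higher with TMM, and 0 were higher and 6 lower with totals. Among the 3 were catalase (Cat) at 2.1 (SE 0.374; -0.38 with totals) and Bpgm, which sets oxygen affinity, at 1.73 (SE 0.398; -0.86 with totals). The third, Gpx1, a glutathione peroxidase, was higher at 1.23 (SE 0.354) with TMM but lower at -1.26 with totals, and its call with TMM was lost without 4 of the 7 libraries (edgeR adjusted p of 0.0522 to 0.102).

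Among 12 regulators of globin switching tested (median 0.81), 3 were higher and 1 lower, and with totals 1 was higher and 7 lower. Sox6, a repressor of embryonic beta-like genes, had no UMI in 2657564 at E10.5 and 35 at E16.5, at least 4.33-fold higher with the floor of 3 counts over the E10.5 libraries and at least 2.21-fold without E10.5 XY replicate 1, which lowers the total at E10.5. Klf2, a factor of primitive erythroid cells, was called higher with TMM (edgeR adjusted p = 0.0104) but not with totals, on 0 to 2 UMIs per library at E10.5 and 37 in E16.5 XY replicate 1 against 0 to 6 in the other 3 E16.5 libraries. It did not pass the filter on low counts without that library, and was not called without E16.5 XX replicate 1 (edgeR adjusted p = 0.991). Nr2f2, a nuclear receptor, was higher at 2.34 (SE 0.721) with TMM and not called with totals (-0.23), on 0 to 20 UMIs per library at E16.5. It also stands in the list of gonadal somatic markers, which summed to 14.9 to 180 CPM in the erythrocytes of E16.5, and the part of RNA from those cells in its value was not tested. Its call was lost without any 1 of the 3 E10.5 libraries (edgeR adjusted p of 0.0516 to 0.0686) or E16.5 XY replicate 1 (0.0914), and without E16.5 XX replicate 1 its sign turned (-0.93, edgeR adjusted p = 0.781). Of the 3 genes called higher, Sox6 alone was called without E16.5 XX replicate 1. The number higher in the list was 1 without E16.5 XY replicate 1 and 2 or 3 without any other library. Hmga2, a fetal chromatin protein, had a log2 fold change of -3.07 (SE 0.593) with TMM, and -5.56 with TMM without E16.5 XY replicate 2. With library totals, the scale of CPM, its log2 fold change was -5.56 (SE 0.678), with means of 61.0 CPM at E10.5 and 1.20 CPM at E16.5. Of 10 erythroid transcription factors (median -0.23) 2 were higher and 1 lower with TMM (1 or 2 higher and 0 to 4 lower with a library left out, the most without E16.5 XY replicate 2), and 0 higher and 7 lower with totals. Lmo2, an adaptor of the erythroid factor complex, was higher at 2.04 (SE 0.416; -0.27 with totals) and Klf3, a repressor, at 1.83 (SE 0.531; -0.75 with totals). Klf1, an activator of adult beta-like genes, was lower at -1.47 (SE 0.421). The call of Klf3 was lost without E10.5 XY replicate 1 (edgeR adjusted p = 0.0834), E16.5 XX replicate 1 (0.184) or E16.5 XY replicate 1 (0.153), and that of Klf1 without either of the last 2 libraries (0.0509 and 0.0971), while without E16.5 XX replicate 2 its value was -2.42.

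Of 11 genes of late maturation and organelle loss (median 2.16), 7 were higher and 1 lower with TMM and 3 higher and 4 lower with totals. Isg20, an exonuclease, had no UMI at E10.5 and was at least 57.9-fold higher at E16.5 (at least 29.6-fold without E10.5 XY replicate 1). Fam46c at 3.78 (SE 0.475), Bcl2l1, an inhibitor of cell death, at 3.65 (SE 0.426) and Bnip3l, which acts in the clearance of mitochondria, at 3.33 (SE 0.384) were higher too, the last not being called with totals (0.80). Among 20 membrane and skeleton genes (median -0.32) 4 were higher and 4 lower (7 lower without E16.5 XX replicate 2), and with totals 2 were higher and 16 lower. Tspo2 was at least 40.1-fold higher (at least 20.5-fold without E10.5 XY replicate 1), while Ermap fell by 5.77 (SE 0.759) and Rhag by 4.51 (SE 0.838). At E16.5 XY replicate 2 held 23 UMIs of Ermap and 32 of Rhag and the other libraries 0 to 2 of each, and without it the log2 fold changes were -6.72 and -5.66. Aqp1, a water channel, was at least 8.78-fold higher with 38 UMIs in E16.5 XX replicate 2, 33 in E16.5 XY replicate 2 and 0 in the other 2 libraries of E16.5. Its bound was 4.70-fold without E16.5 XX replicate 2 and 4.49-fold without E10.5 XY replicate 1, and its call was lost without either E16.5 library that held it (edgeR adjusted p = 0.9999 and 0.9998). Of 3 receptor genes of progenitors Cd24a rose by 4.63 (SE 0.454) and Epor, the erythropoietin receptor, fell by 2.92 (SE 0.537). At E16.5, 20 of the UMIs of Epor were in XX replicate 2 and 0 to 3 in each other library, and its log2 fold change was -4.31 without that library and -5.06 without E16.5 XY replicate 2. Of 14 cell division genes (median -1.22) 0 were higher and 5 lower with TMM, and all 14 were lower with totals. With TMM the 5 became 1 without E10.5 XY replicate 1 or E16.5 XX replicate 1, 2 without E10.5 XX replicate 1, E10.5 XY replicate 2 or E16.5 XY replicate 1, 4 without E16.5 XY replicate 2 and 12 without E16.5 XX replicate 2. Aurkb, a mitotic kinase, stood at -1.90 (SE 0.585) and Tyms, an enzyme of thymidylate synthesis, at -1.79 (SE 0.457). The call of Aurkb was lost without any 1 of the 3 E10.5 libraries, E16.5 XX replicate 1 or E16.5 XY replicate 1 (edgeR adjusted p of 0.0562 to 0.104), and its value was -4.04 without E16.5 XY replicate 2. Tyms was called without each of the 7 libraries in turn, at -1.41 to -2.83. Plk1, another mitotic kinase, stood at -1.68 (SE 0.517) and lost its call without each library but E16.5 XX replicate 2 (edgeR adjusted p of 0.0635 to 0.251), and Top2a, a topoisomerase, at -1.44 (SE 0.404) lost it without 3 of the 7 (0.0570 to 0.0704). Without E16.5 XX replicate 2 the values were -4.43 for Plk1 and -2.09 for Top2a.

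Of 4 other globin genes tested 1 was higher and 1 lower with TMM, and 1 higher and 2 lower with totals. The gene called with totals alone was Hbq1b, an alpha-like gene, at -1.78 (edgeR adjusted p = 0.00171) against 0.59 with TMM. Hbb-bh0, annotated as an unprocessed pseudogene between Hbb-y and Hbb-bh1 (chr7:103850020-103850148), stood at 1614 to 1882 CPM at E10.5 and 180 to 460 at E13.5, and at 0 of 7166101 UMIs at E16.5, at least 4129-fold lower (at least 2585-fold without E16.5 XY replicate 2). Hbq1a, an alpha-like gene downstream of Hba-a2, had no UMI at the first 2 stages and 7.44 to 24.1 CPM at E16.5 (0 to 33.7 between those stages), at least 16.2-fold higher than at E10.5 (at least 8.28-fold without E10.5 XY replicate 1). Over 18 libraries, the genes outside the globins whose level ran most like the summed embryonic globins were Cd59a (Spearman's rho 0.946), Sin3b (0.944), Sertad1 (0.940), Stk3 (0.938) and Tspo (0.930). Those most like the summed adult globins were Fam220a (0.917), Pla2g16 (0.882), Gatm (0.879), Tspo2 (0.872) and Isg20 (0.862). These are the highest of all genes tested and are given as a description, and the libraries share stage and depth.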

How the data were processed

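Single-cell RNA-seq of 20 mouse gonad libraries was analyzed from the deposited matrix of UMI counts (94705 cells, 26397 genes), made by the authors with Cell Ranger 2.1 on GRCm38 with an added eGFP sequence. Cell types, phases and the ratio of reads to UMIs per cell came from the deposited table of cells. Of the columns of cells, 0 could not be assigned to a library. Doublets were not removed, the table used here holding no doublet score. The members and gene lists were chosen with earlier results of these data known.

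UMIs were summed over erythrocytes in each library with at least 5 of them (18 of 20, 175705 to 6021363 UMIs) and tested with edgeR 4.0.16 (limma 3.58.1, R 4.3.3), with TMM scaling, filterByExpr, a group for each stage and sex, and a quasi-likelihood test, two-sided; adjustment was by Benjamini-Hochberg over 7303 genes. The test was checked on simulated counts. Shares were compared by exact permutation of libraries (python 3.11.15, numpy 2.4.6, pandas 2.3.3, scipy 1.17.1; plots by matplotlib 3.10.9). Alternatives were DESeq2 1.42.0, other scalings, filters and minimums of cells, the mean counts of other cells taken off, thinning, means over cells and each library left out. Intervals are 95% exact binomial.

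Replicates were numbered by the date in the sample titles, and XX and XY libraries of a date were taken as pairs. Residuals of such pairs correlated at -0.12 at E12.5 and 0.324 at E16.5. At E12.5 both pairs give the same value by construction, since the libraries of a group lie equally far on either side of its mean. The block by date is given as an alternative. Genes named beside the globins were up to 4 of the called genes of each list with the largest fold changes from E10.5 to E16.5, and the 5 most like the embryonic or the adult globins by Spearman correlation.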

Additional observations from a re-analysis of the deposited data

Results flagged for a closer look

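Groups of 4 libraries of the same stage were searched for a library far from the other 3. The groups share counts and libraries and are not independent, so no rate of chance is set beside them. Of 42 such groups 6 held an outlying library. In 5 of these it was E12.5 XY replicate 1, which stood at 182321 CPM for Hbb-y (346365 to 378157 in the others), 108035 for Hba-a2 (18250 to 19656) and 68301 for Hbb-bt (30174 to 33490). Its embryonic share of beta-like UMIs was 47.1% (74.1 to 78.3%) and its Hba-a1 share of adult alpha-like UMIs 76.5% (93.6 to 94.5%). This library also had 43.1% of erythrocytes under 50% embryonic beta-like UMIs and 12.2 reads per UMI, and the part of either in these values was not tested. The sixth was Hbb-bh1 in E13.5 XY replicate 1, at 1110 CPM against 3393 to 3835.

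The Hba-a1 share of adult alpha-like UMIs moved in opposite directions between E12.5 and E13.5 in the sexes, by -4.87 points in XX and 8.95 points in XY libraries. The difference between the sexes was not tested, and the XY value was 0.4 points without E12.5 XY replicate 1.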

How the results depend on the processing

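All 7 globins were called between E10.5 and E16.5 with DESeq2, with totals and with the globins left out of totals. In the same order, 7.5%, 1.53% and 7.94% of all genes were higher and 2.11%, 75.5% and 6.09% lower. Between E13.5 and E16.5, 3 were called (4 without E16.5 XX replicate 2, against 10.1% of all genes). Members called from E10.5 to E11.5 (2, against 1.19% of all genes) became 4 with no filter on low counts (0.554%). With a library left out they were 0 to 2, being 0 without E10.5 XX replicate 1 (0.115%). From E11.5 to E12.5 (3, against 2.42% of all genes) they became 5 with cells of at least 20% globin UMIs (4.75%) and 5 with no filter (1.22%). Without the 5% of cells with most UMIs they became 6 (6.24%). From E12.5 to E13.5 (0, against 0.205% of all genes) they were 2 with DESeq2 (0.192%) and with cells of at least 20% globin (0.482%). They were also 2 with no filter (0.143%) and without the 5% of cells with most UMIs (0.732%). By sex (0) it was 1 with no filter and 0 to 1 with a library left out, Hbb-bs being called without E16.5 XX replicate 1 (-1.02, edgeR adjusted p = 0.0465). Requiring 20 erythrocytes left 1 library at E10.5 and 1 at E11.5, so that the 0 members then called in both comparisons with E11.5 say nothing about stability. The cause of the other changes was not tested. The globin share cell minimum of 20% and the 5% of cells with most UMIs were chosen after seeing the data, the latter in place of the planned doublet score, which was not run.

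The log2 fold change of Hba-x reversed to -0.29 with totals (E10.5 to E11.5) and to -1.10 with totals (E11.5 to E12.5). It was -0.10 from E11.5 to E12.5 with the mean counts of other cells taken off each erythrocyte. That setting also took off the RNA made by the other cells themselves and left 1655 genes tested in place of 7303. It therefore cannot show the part of free RNA. With library totals the share of called genes that were higher went from 77.0% to 50%, 83.6% to 1.09%, 46.7% to 0%, 22.4% to 46.0% and 68.2% to 1.99% over the 5 stage comparisons, and 11.1% to 28.6% by sex. All genes called, 87, 177, 15, 492, 935 and 9 in the same order, ranged over 1 to 301, 11 to 2576, 1 to 50, 42 to 729, 241 to 5629 and 2 to 48.

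With a library left out, the globin share of UMIs between E13.5 and E16.5 ranged from -0.31 to 3.70 points (-0.31 without E16.5 XX replicate 1 and -0.23 without E16.5 XY replicate 1) and the Hba-a1 share between E10.5 and E16.5 from -3.02 to 2.17 (2.17 without E16.5 XX replicate 1). By sex the embryonic beta-like difference was 8.01 points as a mean over cells (adjusted p = 0.00720, exact permutation) and 4.97 to 10.4 with a library left out (9.83 with adjusted p = 0.0216 without E13.5 XX replicate 2). That of Hba-x was 2.38 to 3.91 (3.90 with adjusted p = 0.00720 without E13.5 XY replicate 2). The replicate block by library date, over 10 libraries and 5 dates, gave -3.73 points for the globin share, 7.87 and 3.37 for these differences (adjusted p = 0.328 each) and -0.95 for Hbb-bs (adjusted p = 0.962), and changed no call. Pairs by date were not crossed.

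With limits of 95% and 5% in place of 90% and 10%, cells of the upper class of embryonic beta-like share were 75% at E10.5 and 2.75% at E12.5, in place of 94.6% and 13.2%. With a limit of 50%, chosen after seeing the data, they were 100% at E10.5 and E11.5, 87.6% at E12.5 and 48.5% at E13.5. Other cells with a globin UMI, 87.5%, 91.7%, 99.8%, 99.8% and 96.5% by stage, were 43.1%, 61.5%, 91.5%, 89.3% and 85.7% when thinned to 3000 UMIs, with 0, 0, 1, 128 and 76 shallower cells left out. The tests rest on 9 to 52 erythrocytes per library at E10.5 and E11.5, and the shares of E16.5 on 225 embryonic beta-like UMIs. Leaving out libraries for the genes of the lists was chosen after seeing the data.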

Other observations

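Some cells of other annotated types carried a large share of globin RNA, which made up 46.3 to 93.5% of UMIs over the erythrocytes of each library. Of 92583 other cells 264 (0.285%) had more than 5% globin UMIs and 75 more than 50%, with 40 between 1 and 5%. From the earliest stage to the latest they numbered 0, 3, 56, 80 and 125, of which 0, 3, 51, 41 and 0 had at least 50% embryonic beta-like UMIs, and 0 lay between 5 and 50%. Their median was 28205 UMIs against 16519 in the remaining other cells. Immune cells held the largest share among the 18 types, 24 of 321 cells (7.48%, 95% exact binomial interval 4.85 to 10.9%), and germ cells the largest number, 83 of 14876 (0.558%). Whether these are droplets that held a red cell beside another cell was not tested.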
